A study of Mus musculus with 20 samples.

Results

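The 53BP1 and shieldin genes encode the proteins that protect the ends of broken chromosomes, and their RNA levels were followed in olaparib-sensitive and olaparib-resistant mouse breast tumours. The 8 members were chosen by name: Trp53bp1, Rif1, Paxip1, Shld1, Shld2, Shld3, Mad2l2 and Dynll1. All 8 were among the 16411 genes of the deposited table, and all 8 passed the filter on low values that left 16330 genes for testing. Every member had reads in each of the 19 libraries used, from 135 reads for Shld3 to 15586 for Dynll1.

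53BP1 is a chromatin-bound scaffold that gathers at DNA double-strand breaks and recruits RIF1 and PTIP. RIF1 in turn brings shieldin, a complex of SHLD1, SHLD2, SHLD3 and REV7, which holds back resection of the break end and so favours end joining over homologous recombination. In cells that lack BRCA1, loss of a member of this pathway restores resection and homologous recombination and is a known route to resistance to PARP inhibitors, which is the reason for reading these genes in resistant tumours.

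The tumours were allografts, meaning mouse breast tumours carried in host mice, and RNA came from whole tumour tissue. MDA594 is sensitive to PARP inhibitors, while MDA594OR1 and MDA594OR2, called OR1 and OR2 here, are resistant. Each was either untreated or treated with olaparib, an inhibitor of PARP1 and PARP2. Titles of the treated libraries read Olap_100, with no unit in the title. Untreated MDA594 had 4 libraries, treated MDA594 had 3, untreated OR1 had 3, treated OR1 had 4, untreated OR2 had 2 and treated OR2 had 3, and OR1 and OR2 are single lines. The labels used here give no strain, age, duration of treatment or driver mutation for the tumours or hosts. 1 more MDA594 library was left out because its title and its treatment label disagree.

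Libraries held 36.8 to 118 M reads. The last code of a library's title was taken as the host animal: 19 libraries carried 14 codes, 5 codes were shared by a pair of libraries, and both untreated OR2 libraries carried the same one. Library names fall into a series numbered ABA44 and a series numbered ABA45, and all 3 treated MDA594 libraries and both untreated OR2 libraries are ABA45. The epithelial markers Epcam (8.62 to 10.4 log2 CPM, reads of the gene per M reads of the library) and Cdh1 (8.13 to 9.60) were high in all 19 libraries, whereas the basal keratin Krt14 lay between -6.72 and 1.5 and Krt5 was not analysed here. Host cells were present too, and in whole tissue fewer cells of a type and less RNA per cell cannot be told apart.

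Promoter sequences are shown for 2 members, Trp53bp1 because it is the scaffold, and Dynll1 because it had the largest difference of all members. Each is the run of 250 bases before a RefSeq transcription start on GRCm38.p6, read 5′ to 3′ on the minus strand, at chr2:121271408-121271657 and chr5:115300991-115301240. The deposited values were made on GRCm39, so these positions do not carry over to it. Capitals mark a CCAAT box (CCAAT) or a GC box (GGGCGG) on either strand.
Trp53bp1: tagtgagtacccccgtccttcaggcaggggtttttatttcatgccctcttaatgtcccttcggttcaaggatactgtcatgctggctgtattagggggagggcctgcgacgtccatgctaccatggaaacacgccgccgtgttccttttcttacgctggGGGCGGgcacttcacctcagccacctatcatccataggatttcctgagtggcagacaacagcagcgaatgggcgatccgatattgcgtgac
Dynll1: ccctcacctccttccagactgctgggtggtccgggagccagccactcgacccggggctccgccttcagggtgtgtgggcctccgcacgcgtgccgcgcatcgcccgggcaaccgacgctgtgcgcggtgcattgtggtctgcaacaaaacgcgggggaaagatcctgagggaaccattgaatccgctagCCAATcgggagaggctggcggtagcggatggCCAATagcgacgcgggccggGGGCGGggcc
The Dynll1 window held 2 CCAAT boxes, 61 and 30 bases before the start, and 1 GC box, and these did not overlap. The Trp53bp1 window held 1 GC box, 91 bases before the start, and no CCAAT box. Of 32851 RefSeq windows of this length, 33.8% held a CCAAT box and 32.7% a GC box, and the core of the E2F motif (TTCCCGC) was in 3.82% of them and in neither of the windows shown. RefSeq windows matched 7 of the 8 members, and these matches describe letters only.

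Across all comparisons of lines and treatments, no member passed the test. Changes are differences of group means on the log2 scale from limma, with a standard error (SE), and p-values were adjusted over all 16330 genes with a threshold of 0.05. Of the 72 tests of a member in a comparison, 0 passed with limma, 5 had an unadjusted p under 0.05, and voom on recovered reads also called 0. The 5 were Dynll1 in 3 comparisons, Shld2 in 1 and Rif1 in 1.

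**Figure D1:**
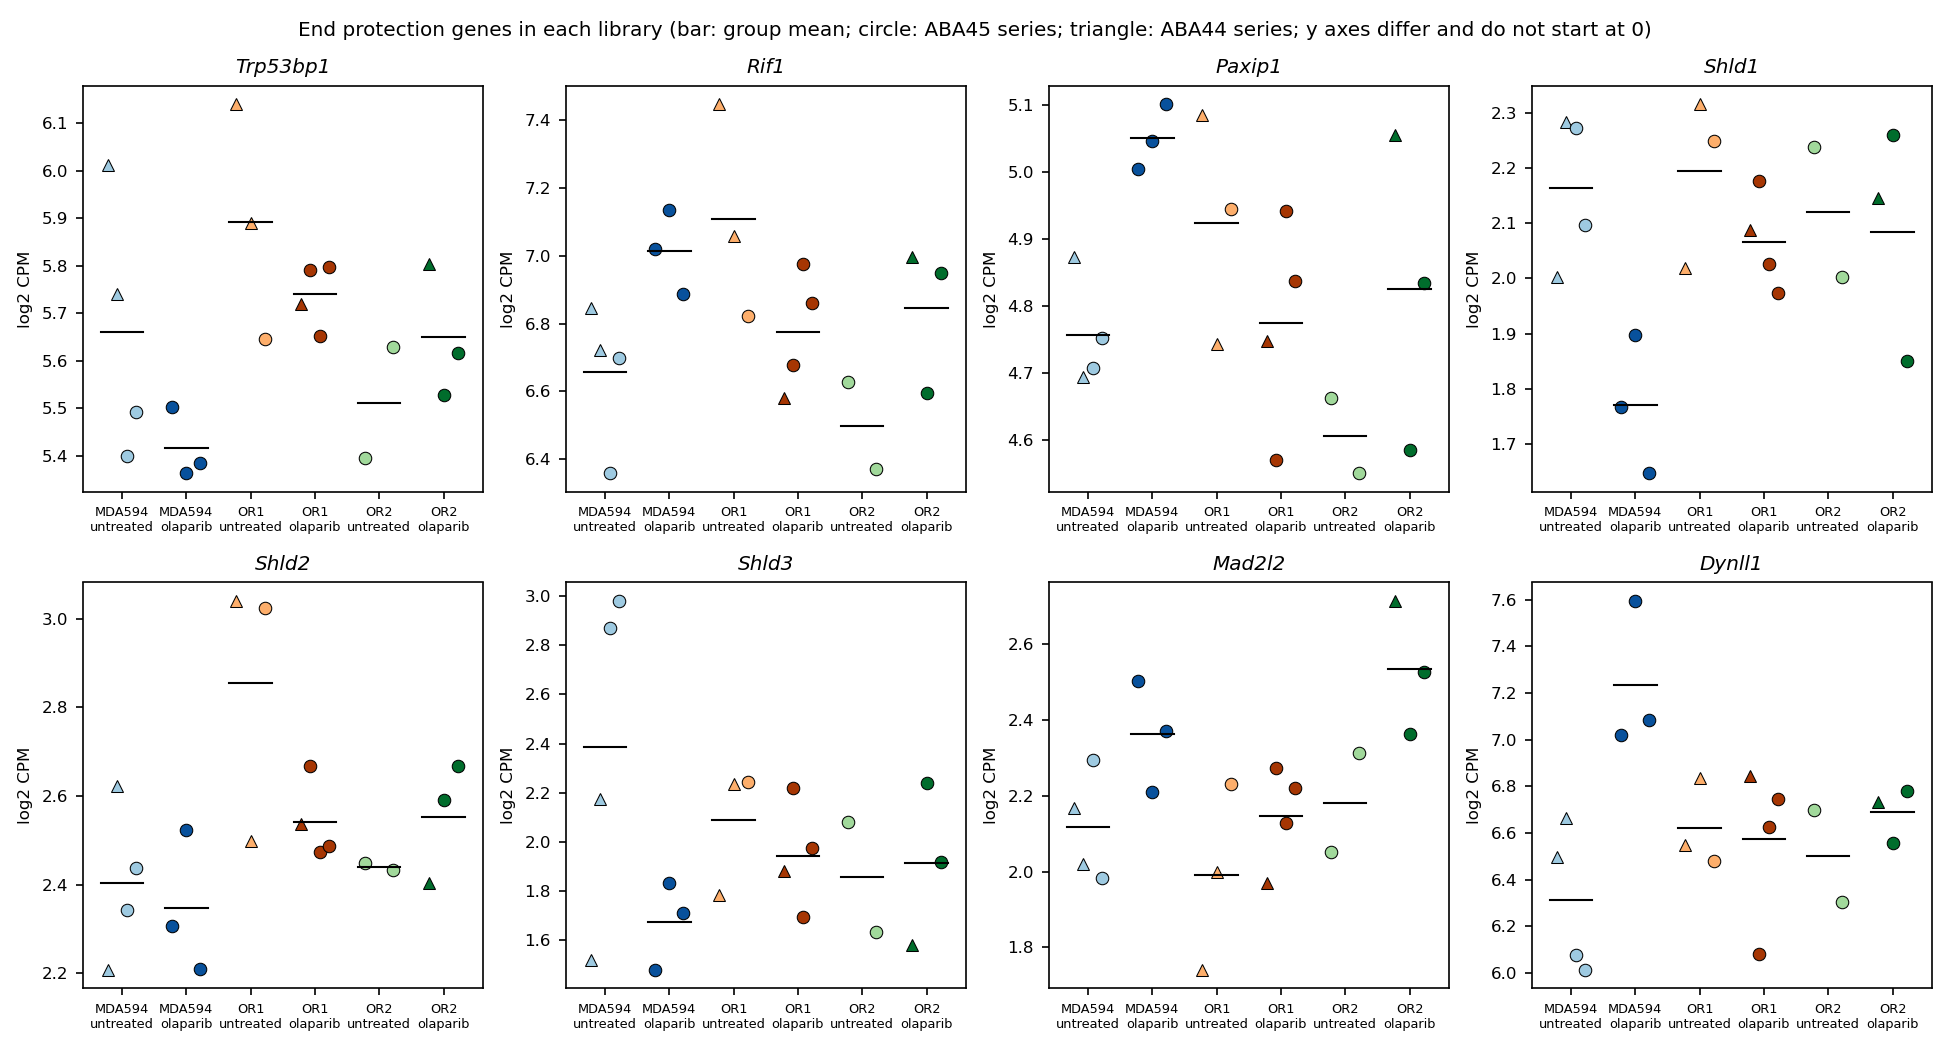
Log2 CPM of each member in each of the 19 libraries, by line and treatment. Points are libraries, with circles for the ABA45 series and triangles for the ABA44 series, and the bar is the group mean; Dynll1 in treated MDA594 lies at 7.02 to 7.59, above the other 16 libraries, which reach 6.84.

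Trp53bp1, the gene of 53BP1 itself (ENSMUSG00000043909.17), was at 5.39 to 6.14 log2 CPM in the 12 resistant libraries, against 5.36 to 6.01 in the 7 MDA594 libraries. In untreated MDA594 it was at 6.01, 5.74, 5.40 and 5.49 log2 CPM, and in treated MDA594 at 5.50, 5.36 and 5.38. In untreated OR1 it was at 6.14, 5.89 and 5.65, and in treated OR1 at 5.72, 5.79, 5.65 and 5.80. In untreated OR2 it was at 5.39 and 5.63, and in treated OR2 at 5.80, 5.53 and 5.62. None of the 12 resistant libraries was below the lowest of the 7 MDA594 libraries, which was a treated one. The untreated groups overlapped, while under olaparib each OR1 and OR2 library was above each MDA594 library.

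Trp53bp1 passed in no comparison of a resistant line with MDA594. Untreated OR1 differed from untreated MDA594 by 0.17 (SE 0.16, adjusted p = 0.681), with a 95% interval of 88.1% to 143% of the MDA594 level. Untreated OR2 differed by -0.19 (SE 0.20, adjusted p = 0.847), with an interval of 66.0% to 117%. Under olaparib the intervals were 98.9% to 160% for OR1 and 92.0% to 151% for OR2 (adjusted p = 0.297 and 0.501). These intervals belong to that fit: with the title number in the model, treated OR1 differed from treated MDA594 by -0.28 (SE 0.27, adjusted p = 0.660), the 1 of 21 alternatives with the opposite sign. The order of the 6 group means ran from untreated OR1 to treated MDA594, and in all 5 steps of that order neighbours differed by less than the pooled SD of 0.18. Trp53bp1 was also higher in the ABA44 series in 3 of the 4 groups that hold both series, by up to 0.43.

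Rif1 (ENSMUSG00000036202.17), the effector that carries shieldin to 53BP1, reached its highest level in untreated OR1. It was at 6.85, 6.72, 6.36 and 6.70 in untreated MDA594 and at 7.02, 7.14 and 6.89 in treated MDA594. In untreated OR1 it was at 7.45, 7.06 and 6.82, and in treated OR1 at 6.58, 6.68, 6.98 and 6.86. In untreated OR2 it was at 6.63 and 6.37, and in treated OR2 at 7.0, 6.60 and 6.95. The treated MDA594 libraries lay above all untreated ones, whereas in OR1 and OR2 the treated and untreated libraries overlapped.

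Paxip1 (ENSMUSG00000002221.12) encodes PTIP, the other effector of phosphorylated 53BP1, which also serves in histone methyltransferase complexes. It was at 4.87, 4.69, 4.71 and 4.75 in untreated MDA594 and at 5.01, 5.05 and 5.10 in treated MDA594. In OR1 it was at 5.09, 4.74 and 4.94 untreated and at 4.75, 4.57, 4.94 and 4.84 treated. In OR2 it was at 4.66 and 4.55 untreated and at 5.06, 4.59 and 4.83 treated. Treated MDA594 stood above untreated MDA594 and above treated OR1 without overlap, and both untreated OR2 libraries lay below all untreated MDA594 libraries. Of the 12 resistant libraries, 4 were below the lowest MDA594 library, by at most 0.14.

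The 3 SHLD genes and Mad2l2 make up shieldin. Shld1 (ENSMUSG00000044991.11), whose product binds the end of SHLD2, was at 2.0, 2.28, 2.27 and 2.10 in untreated MDA594 and at 1.77, 1.90 and 1.65 in treated MDA594, with no overlap. Its resistant libraries ran from 1.85 to 2.32, and their group means were between 2.07 and 2.19 whether treated or not. Treated MDA594 was the lowest group, 0.30 below the next, against a pooled SD of 0.15.

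Shld2 (ENSMUSG00000041471.10), the subunit that binds single-stranded DNA, was highest in untreated OR1. It was at 3.04, 2.50 and 3.02 there, against 2.21, 2.62, 2.34 and 2.44 in untreated MDA594. The OR1 library at 2.50 lay within the MDA594 range. The remaining groups spanned 2.21 to 2.67. Untreated OR1 exceeded untreated MDA594 by 0.47 (SE 0.21, unadjusted p = 0.0379, adjusted p = 0.345), and no resistant library was below the lowest MDA594 library.

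Shld3 (ENSMUSG00000118537.2), whose product binds REV7, had the largest SD of the members over the 19 libraries, 0.41 on the log2 scale. It was at 1.52, 2.17, 2.87 and 2.98 in untreated MDA594 and at 1.48, 1.83 and 1.71 in treated MDA594. Both high untreated libraries are ABA45 and share a code. All 12 resistant libraries lay between 1.58 and 2.24, within the range of MDA594. In RefSeq Shld3 lies within Trappc13, a trafficking gene on the same strand, so reads of the pair cannot be fully separated. Trappc13 was at 4.57, 4.87, 3.93 and 4.05 in untreated MDA594, lower in the 2 libraries where Shld3 was highest. The part of shared reads in the spread of Shld3 was not tested.

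Mad2l2 (ENSMUSG00000029003.12) encodes REV7, which is also a subunit of the translesion polymerase zeta. It was at 2.17, 2.02, 2.29 and 1.98 in untreated MDA594 and at 2.50, 2.21 and 2.37 in treated MDA594. In OR1 it was at 1.74, 2.0 and 2.23 untreated and at 1.97, 2.27, 2.13 and 2.22 treated. In OR2 it was at 2.05 and 2.31 untreated and at 2.71, 2.36 and 2.53 treated, the highest group mean of all. The OR2 groups did not overlap, while the OR1 groups did. Of the 12 resistant libraries, 2 lay below the lowest MDA594 library, 1 of untreated and 1 of treated OR1.

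Dynll1 (ENSMUSG00000009013.6) encodes the dynein light chain LC8, which binds 53BP1 and promotes its assembly, and in human cells also restrains the nuclease MRE11. It was at 6.50, 6.67, 6.08 and 6.01 in untreated MDA594 and at 7.02, 7.59 and 7.08 in treated MDA594. In OR1 it was at 6.55, 6.84 and 6.48 untreated and at 6.84, 6.08, 6.63 and 6.74 treated. In OR2 it was at 6.70 and 6.30 untreated and at 6.73, 6.56 and 6.78 treated. Treated MDA594 lay above every other library, and the OR1 and OR2 groups overlapped with each other. Mouse has processed copies of Dynll1 with similar sequence, so some of its reads may be shared with them.

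Ranked by group mean, neighbouring groups were mostly closer than the spread of libraries within groups. For Rif1 and Shld3 all 5 steps of the order were below the pooled SD of 0.21 and 0.40. For Paxip1, Shld1, Shld2 and Dynll1 1 of 5 steps exceeded it, and for Mad2l2 2 did. The step for Dynll1 was 0.54, from treated MDA594 down to treated OR2, against a pooled SD of 0.28, and that for Shld2 was 0.30, from untreated OR1 down to treated OR2, against 0.17.

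In MDA594, olaparib was compared with no treatment to ask whether the sensitive tumour responds in these genes. Dynll1 was higher by 0.86 (SE 0.24, 95% interval 0.35 to 1.37, a 1.81-fold difference), with an unadjusted p of 0.00256 and an adjusted p of 0.115 in limma. No member passed, against 0.122% of all genes, and 1 of 8 had an unadjusted p under 0.05, against 16.8% of all genes. The groups did not overlap for 4 members, with Rif1, Paxip1 and Dynll1 higher and Shld1 lower, against 24.9% of all genes. The other 7 members lay between -0.62 for Shld3 and 0.32 for Rif1. The median change was 0.09 over members and 0.01 over all genes.

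Dynll1 in this comparison depended on how shared codes and library series were handled. It was called with the code correlation left out (0.92, adjusted p = 0.0221), where 6.27% of all genes were called, and with the series in the model (1.04, adjusted p = 0.0493), where 0.68% were. It was also called with the title number in the model (1.26, adjusted p = 0.00612), where 19.1% of all genes were called, and within ABA45 alone (1.20, adjusted p = 0.00165), where 32% were. It was higher in treated tumours in all 22 alternatives, by 0.65 to 1.26, with adjusted p from 0.00165 to 0.351. In each of the 4 groups that hold both series, Dynll1 was higher in ABA44, by 0.06 to 0.53, and all treated MDA594 libraries are ABA45. Within ABA45 both untreated MDA594 libraries share a code, so that value rests on 1 host as control. Shld3 was lower in ABA44 in 4 of 4 such groups, by values of -1.08 to -0.08, and within ABA45 it too was called, as was Rif1, against 32% of all genes there.

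**Figure D2:**
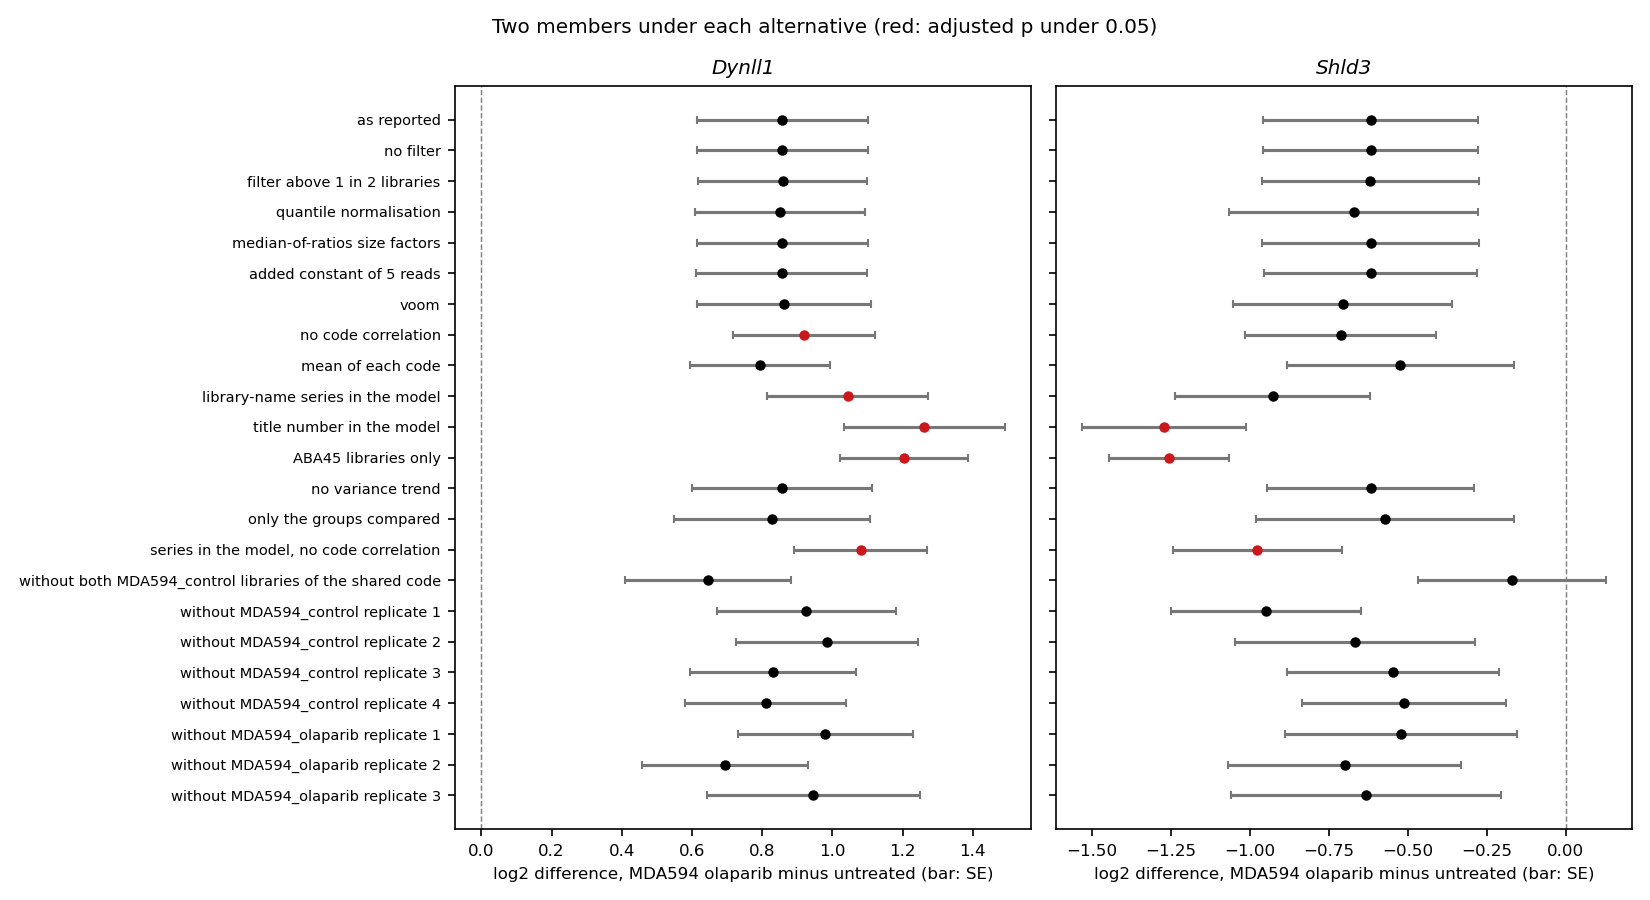
Log2 difference between treated and untreated MDA594 for Dynll1 and Shld3 as reported and under each alternative, with bars for the SE and red for an adjusted p under 0.05. Dynll1 stays above 0 throughout, from 0.65 to 1.26, whereas Shld3 runs from -1.27 to -0.17.

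In OR1, olaparib was compared with no treatment in the same way. Dynll1 differed by 0.01 (95% interval -0.51 to 0.52), and the largest change was in Shld2 at -0.34 (SE 0.21, adjusted p = 0.899). No member passed or had an unadjusted p under 0.05 in limma, against 0% and 5.87% of all genes, and voom also called none. No member had groups without overlap, against 15.2% of all genes. Of the 8 members, 6 were lower, with a median change of -0.15 against -0.01 over all genes.

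In OR2, 7 of 8 members were higher with olaparib, none past the threshold. The largest difference was in Mad2l2 at 0.35 (SE 0.26, adjusted p = 0.895), followed by Rif1 at 0.35 (SE 0.23, adjusted p = 0.871), and Dynll1 differed by 0.19 (95% interval -0.43 to 0.81). No member passed, against 0% of all genes, and 0 had an unadjusted p under 0.05, against 6.64%. Only Mad2l2 of the members had groups without overlap, against 21.1% of all genes. The untreated group is 2 libraries with 1 code.

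The responses were then compared with each other. The OR1 response minus the MDA594 response was -0.85 for Dynll1 (SE 0.34, unadjusted p = 0.0238) and -0.63 for Rif1 (SE 0.27, unadjusted p = 0.0329), each with an adjusted p of 0.673 in limma. These were 2 of 8 members with an unadjusted p under 0.05, against 7.33% of all genes, and no member and 0% of all genes passed. For OR2 the largest difference of responses was in Shld3 at 0.67 (SE 0.54, adjusted p = 0.955), and Dynll1 was at -0.67 (SE 0.38, adjusted p = 0.882). There 0 members had an unadjusted p under 0.05, against 6.16% of all genes, and 0% of all genes passed. With the title number in the model, the Dynll1 difference between the OR1 and MDA594 responses was -1.42 and was called (adjusted p = 0.0247), in a fit that called 7.21% of all genes. It was called in that 1 of 29 alternatives, and the OR2 difference of Dynll1 in 0 of 27.

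Untreated resistant tumours were compared with untreated MDA594 to ask whether end protection genes are lower at baseline. In OR1, 6 of 8 members were higher, with a median change of 0.17 against 0.02 over all genes, and Shld2 had the largest difference, given above. No member passed, against 0.11% of all genes, 1 had an unadjusted p under 0.05, against 13.6%, and none had groups without overlap, against 20.2%. In OR2, 5 of 8 were lower, with a median change of -0.10 against -0.01 over all genes. The largest was Shld3 at -0.44 (SE 0.40, adjusted p = 0.812), whose sign turned to 0.01 without both untreated MDA594 libraries of the shared code. No member passed, against 0.214% of all genes, none had an unadjusted p under 0.05, against 10.6%, and Paxip1 alone had groups without overlap, against 24.6%.

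**Figure D3:**
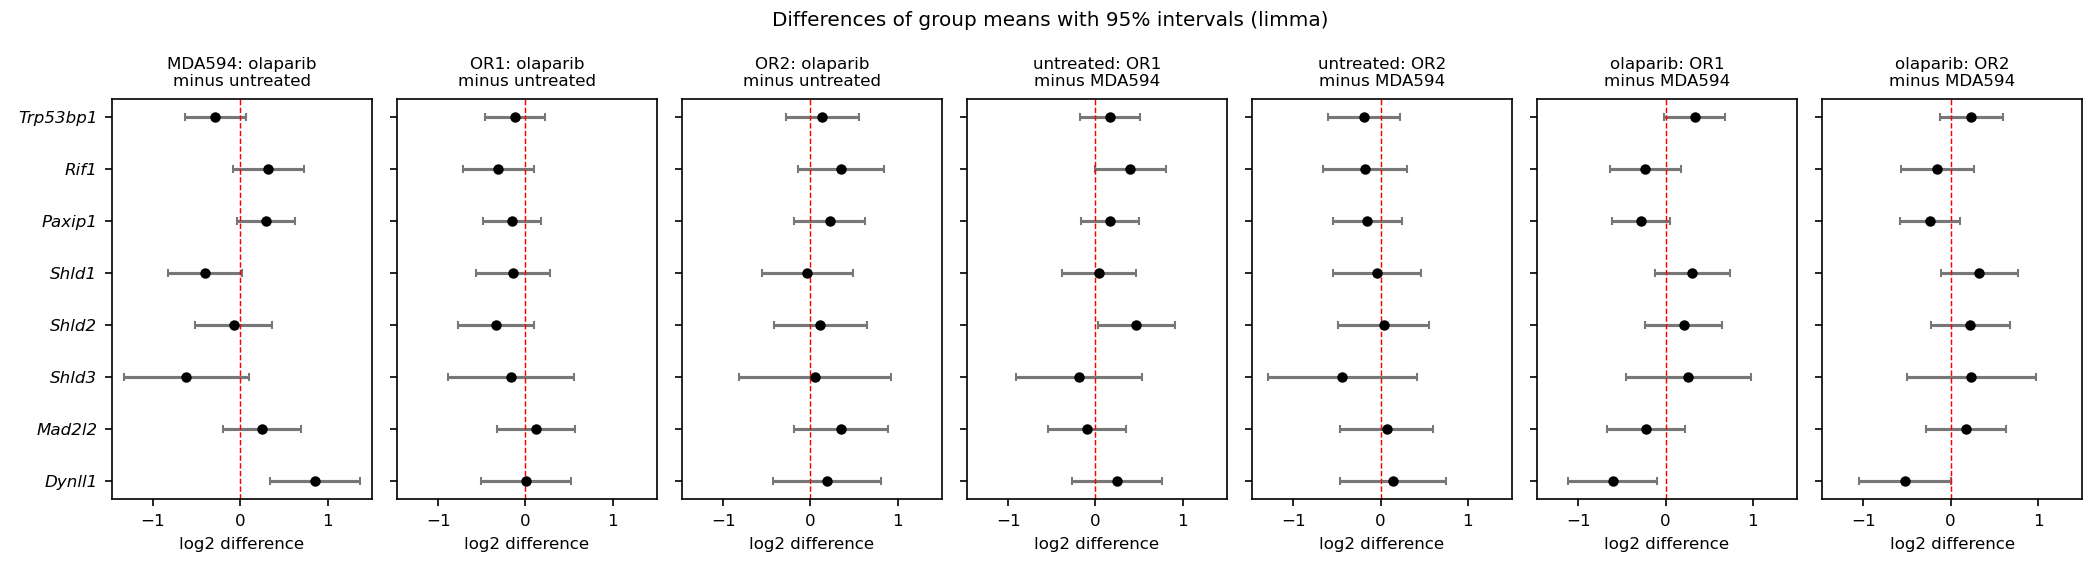
Log2 differences of group means for each member in the comparisons of treatment within a line and of lines within a treatment, with 95% intervals from limma. The Dynll1 intervals exclude 0 in MDA594 with olaparib (0.35 to 1.37) and in treated OR1 against treated MDA594 (-1.12 to -0.09), and the other intervals include 0 apart from that of Shld2 in untreated OR1 (0.03 to 0.91).

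Under olaparib, Dynll1 values were lower and Trp53bp1 values higher in the resistant tumours than in MDA594, without overlap, and neither gene passed. For Trp53bp1 in OR1 this sign turned with the title number in the model, at -0.28 as given above. Dynll1 differed by -0.61 in OR1 (SE 0.24, unadjusted p = 0.0232, adjusted p = 0.214) and by -0.53 in OR2 (SE 0.25, unadjusted p = 0.0507, adjusted p = 0.291). Both comparisons share the treated MDA594 libraries, as does the MDA594 response, so the 3 Dynll1 values are not independent. In OR1 4 members had groups without overlap, Trp53bp1 and Shld1 higher and Paxip1 and Dynll1 lower, against 32.1% of all genes, and in OR2 there were 2, Trp53bp1 and Dynll1, against 23.9%. No member passed in OR1, against 0.545% of all genes, or in OR2, against 1.58%. At an unadjusted p under 0.05 there was 1 member in OR1, against 18%, and 0 in OR2, against 17.3%. In a fit of the compared groups alone, both Dynll1 (-0.73, adjusted p = 0.0186) and Trp53bp1 (0.32, adjusted p = 0.0160) were called in OR1, along with 29.4% of all genes. That fit estimated the code correlation at -0.38, against 0.404 in the fit reported. Within ABA45 the same 2 were called, Dynll1 at -0.80 (adjusted p = 0.0126) and Trp53bp1 at 0.32 (adjusted p = 0.0278), along with 20.9% of all genes.

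Some pairs of members varied together. Over 19 libraries, Rif1 and Paxip1 had a Pearson's r of 0.78, and 0.64 for deviations from group means, and Shld1 and Shld3 had 0.58. Shld1 ran against Paxip1 (-0.58). Trp53bp1 and Shld3 had -0.29 over all libraries and -0.83 within groups, and -0.12 over the 13 ABA45 libraries. These correlations share libraries, host codes and normalisation and are given as descriptions.

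**Figure D4:**
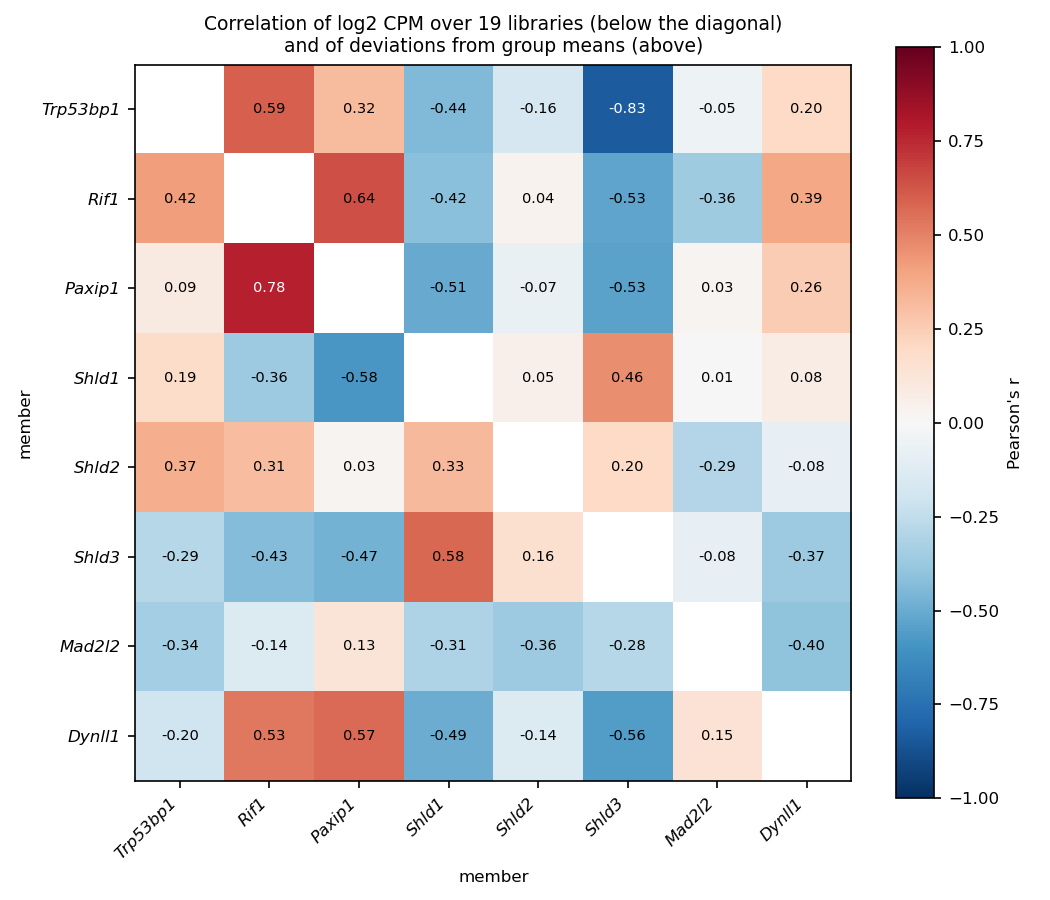
Pearson's r between members, with log2 CPM over 19 libraries below the diagonal and deviations from group means above it. Rif1 and Paxip1 are at 0.78 below and 0.64 above the diagonal, and Trp53bp1 and Shld3 at -0.29 and -0.83.

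The genes most like each member over the 19 libraries differed from member to member. For Rif1 they were Mdn1 (r = 0.93), Ythdc2 (0.92) and Xpo1 (0.90), and for Paxip1 they were Mms22l (0.90), Nfatc2ip (0.90) and Dscc1 (0.89). For Dynll1 they were Nop56 (0.90), Taf12 (0.88) and Nup35 (0.86), with Rbbp8, the gene of the resection factor CtIP, at rank 15 (0.83). For Trp53bp1 they were D3Ertd751e, Ift172 and Gm36957, each at 0.88, with Ctc1 of the fill-in complex CST at rank 73 (0.80). For Shld1 they were Gm22513 (0.81), Snord118 (0.78) and Gm26641 (0.77), for Shld2 Nkap (0.82), Amacr (0.79) and Zfp422 (0.79), for Shld3 Sft2d2 (0.85), Maf1 (0.84) and Fam76a (0.84), and for Mad2l2 B3gnt8 (0.81), Pigt (0.78) and Srxn1 (0.78). Among the 100 nearest genes, Rif1 had Hells, Atm and Pola1 of the pathway lists and the member Paxip1. Paxip1 had Dna2, Prim1 and Pola2 of those lists and the member Rif1, and Shld2 had Ppp1cb at rank 76 (0.69).

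Some members varied with genes of proliferating cells and others did so little. The summed CPM of 10 proliferation genes was 1809 to 2201 in untreated MDA594, 2366 to 2658 in treated MDA594, 2237 to 3096 in untreated OR1, 1485 to 2157 in treated OR1, 1783 to 2076 in untreated OR2 and 1894 to 2912 in treated OR2. The score of a list was the mean log2 CPM of its genes. Over the 19 libraries the score of this list had an r of 0.69 with Rif1, 0.69 with Paxip1, 0.65 with Dynll1 and -0.52 with Shld1. Within groups these were 0.43, 0.40, 0.54 and -0.60, and its part in the differences of these genes was not tested. For Trp53bp1, Shld2, Shld3 and Mad2l2 the r over all libraries was 0.06, 0.29, -0.32 and -0.05. How many of all genes reach such values was not counted. Macrophage markers, 8 of 8 in the table, summed to 298 to 504 CPM in untreated and 851 to 1183 CPM in treated MDA594, and their part was not tested either. Their mean log2 CPM had an r of -0.55 with Trp53bp1, -0.55 with Shld1, 0.54 with Mad2l2 and 0.32 with Dynll1 over all libraries. Within groups these were -0.13, -0.05, 0.14 and -0.24. The same mean of neutrophil markers, 4 of 5 in the table, had an r of -0.71 with Rif1 and -0.71 with Paxip1. Within groups these were -0.45 and -0.57. That of tumour epithelium markers, 7 of 8 in the table, had an r of 0.66 with Mad2l2 and -0.51 with Trp53bp1. Within groups the epithelial values were 0.51 and -0.59. With olaparib in MDA594, 7 of 7 T cell markers were higher (median 1.56), as were 7 of 7 fibroblast markers (median 1.07), 5 of 5 endothelial markers (median 0.84) and 6 of 6 skeletal muscle markers (median 4.51), and no marker passed. Of the neutrophil markers 1 of 4 was higher (median -0.91). In OR1 8 of 8 macrophage (median 1.34) and 7 of 7 T cell markers (1.28) were higher with olaparib. So were 7 of 7 fibroblast (1.15), 5 of 5 endothelial (0.50) and 4 of 4 neutrophil markers (1.34). Of the muscle markers 0 of 6 were higher in OR1 (-2.69). In OR2 7 of 7 T cell (1.54) and 8 of 8 macrophage markers (0.50) were higher. So were 4 of 7 fibroblast (0.21) and 2 of 5 endothelial markers (-0.01). In OR2 0 of 4 neutrophil markers (-1.67) and 0 of 6 muscle markers (-1.23) were higher. The muscle markers summed to 0.758 to 808 CPM over the treated MDA594 libraries. The part of these cells in the differences of the members was not tested.

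Of 56 listed symbols of the wider pathway, 52 were tested. The lists cover recruitment of 53BP1 by RNF8 and RNF168, partners of 53BP1 and REV7, the CST complex with polymerase alpha that fills ends in, cofactors of RIF1 and PTIP, and resection. Only Asf1b, a histone chaperone that works with RIF1, passed in any comparison. It was 1 of the 52 in treated OR2 against treated MDA594, where 1.58% of all genes passed. It was at 5.09 to 5.20 in treated MDA594 and 4.15 to 4.53 in treated OR2, and treated OR2 differed from treated MDA594 by -0.77 (SE 0.17, adjusted p = 0.0327 in limma). With olaparib Asf1b differed by 0.70 in MDA594 (adjusted p = 0.0938) and by 0.08 in OR2 (adjusted p = 0.987), and untreated OR2 differed from untreated MDA594 by -0.15 (adjusted p = 0.888). Brca1, the resection and recombination factor, missed the threshold in untreated OR1 against untreated MDA594, at 1.22 (SE 0.29, adjusted p = 0.0986), and is named here after its values were seen. Untreated OR2 differed from untreated MDA594 in Brca1 by 0.72 (SE 0.34, adjusted p = 0.470 in limma). Under olaparib the Brca1 differences from MDA594 were 0.46 in OR1 and 0.45 in OR2 (adjusted p = 0.408 and 0.453 in limma). Brca1 RNA was at 4.58 to 6.71 log2 CPM over the 19 libraries.

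As counts, 40 of the 52 were higher and 12 lower with olaparib in MDA594, with a median of 0.19 against 0.01 over all genes. Of these 0 passed, against 0.122% of all genes. In OR1 8 were higher and 44 lower (median -0.18), and in OR2 39 were higher and 13 lower (median 0.15). In both, 0 passed, against 0% of all genes. The 12 resection genes were all higher in MDA594 (median 0.40) and all lower in OR1 (median -0.23). In OR2 9 of the 12 were higher and 3 lower (median 0.24). Of the 10 proliferation genes, 9 were higher in MDA594 (median 0.44), 0 in OR1 (median -0.38) and 9 in OR2 (median 0.33). The part of these genes was not tested. The difference of responses between OR1 and MDA594 was negative for 44 of the 52 (median -0.36), and 0 passed, against 0% of all genes. At baseline 35 were higher and 17 lower in OR1 (median 0.18, against 0.02 over all genes). In OR2 15 were higher and 37 lower (median -0.14, against -0.01 over all genes). In either 0 passed, against 0.11% of all genes in OR1 and 0.214% in OR2. Under olaparib 12 were higher and 40 lower in OR1 than in MDA594 (median -0.20), and 0 passed, against 0.545% of all genes. In OR2 17 were higher and 35 lower than in MDA594 (median -0.09), and Asf1b alone passed, against 1.58% of all genes. The difference of responses between OR2 and MDA594 was positive for 28 and negative for 24 (median 0.04), and 0 passed, against 0% of all genes.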

How the data were processed

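Poly(A) RNA was sequenced from KAPA stranded libraries, per the labels. The authors' deposited values are log2 CPM per gene; per the submitters' processing notes, STAR 2.7.10a, RSEM 1.3.1, limma and GRCm39 were used. Antilogs were whole reads plus 0.5, at a tolerance of 0.01 reads, in every library, so reads were recovered for depth and for voom.

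Genes with log2 CPM above 0 in at least 2 of 19 libraries were kept (16330; 81 removed). limma 3.58.1 in R 4.3.3 fitted 6 group means with a correlation between libraries of a code (0.404), 13 residual degrees of freedom and a variance trend; tests were two-sided with Benjamini-Hochberg adjustment. The labels do not say that libraries come from separate animals. The p-values cover the spread between libraries, with those of a code taken as correlated, and rest on that reading of the code. Alternatives changed the filter, scaling, added constant, test (voom), shared codes, series, title number, groups fitted and each library.

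All members were named, with fold and SE where an unadjusted p was under 0.05 or the difference was the largest in its comparison; pathway genes were named when past the threshold, and the 3 most correlated genes per member. Members and lists were chosen with earlier results of these data known.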

Additional observations from a re-analysis of the deposited data

How the results depend on the processing

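Leaving out any 1 library changed no count of called members, which stayed at 0 in every comparison. In MDA594 with olaparib 1 member was called without the code correlation, where 6.27% of all genes were, and 1 when the model held the library-name series, where 0.68% were (Dynll1 in both). There were 2 with the title number in the model (Shld3 and Dynll1), against 19.1% of all genes, 3 within ABA45 (Rif1, Shld3 and Dynll1), against 32%, and 2 (Shld3 and Dynll1) with the series in the model and no code correlation, a fit chosen after seeing the data, against 8.3%. Within ABA45, 1 was called in untreated OR2 (Shld3, -1.07), against 24.7% of all genes, 2 in treated OR1 (Trp53bp1 and Dynll1), against 20.9%, and 1 in the difference of the OR2 and MDA594 responses (Shld3, 1.48), against 5.9%. In treated OR1, 2 were called with only the groups compared, against 29.4%, and 1 (Dynll1, -0.74) with the series and no code correlation, against 5.57%. In the difference of the OR1 and MDA594 responses, 1 was called with the title number (Dynll1, -1.42), against 7.21%. Shld3 in untreated OR2 reversed to 0.010 without both untreated MDA594 libraries of the shared code, also chosen after seeing the data. The cause was not tested. The code correlation was estimated at -0.13 in the title number fit and -0.30 within ABA45, against 0.404 in the fit reported. It was -0.38 for treated OR1 in the fit of only the groups compared. The fit of only the groups compared could not be run for the OR2 response and treated OR2. Over all genes, calls in MDA594 with olaparib ran from 0 to 5220. Groups of 2 to 4 libraries with shared hosts, and 135 reads in the shallowest case, limit precision. The labels give no replicate numbers; the number in the titles, which some groups share, was fitted as a block in the title number alternative.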
